A study of Synthetic plasmid and Mus musculus with 4 samples.

Results

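The 9 genomic target sites described here, R154, R321, R368, R366, R539, R24, R332, R349 and R64, were those with the highest summed reporter activity in mouse retina after R392 was set aside. Their members are the reporter constructs whose cloned fragment overlaps one of the 9 sites and whose barcode had at least 10 counts in each of the 3 retina DNA libraries. Of 131 constructs assigned to the 9 sites, 107 met that minimum, out of 36005 constructs in the whole library that met it and 45670 listed in all. The sites were chosen by their RNA and DNA counts in retina, so all retina values below describe the members and carry no test. In the fitted order of 2031 regions, R64 was the last site inside the choice with a log2 RNA/DNA of 8.88 (rank 10), and R148 was the first outside it with 8.75 (rank 11). The DNA minimum fell between an R321 construct with 10 counts and an R332 construct with 9 counts in DNA library 2.

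The library was built from sonicated C57BL/6J mouse DNA that was captured around target windows of 300 bp and cloned in front of barcodes. Retinas of CD-1 mice received it by electroporation ex vivo at postnatal day 0 and stayed in culture for 8 days. There were 3 biological replicates, each of 5 retinas. Cerebral cortex of CD-1 mice received the same library in an adeno-associated virus, injected at an age of 4 to 6 weeks, and GFP-positive regions were dissected 4 to 5 weeks later, with 3 replicates of 1 animal each. Tissue, age, delivery and sequencing lane therefore differ together. Electroporation and virus reach only some cells of a tissue, and the labels do not say which cell types carried the library. RNA libraries held 7025820 to 10411511 counts in retina and 4000439 to 9674859 in cortex, and DNA libraries held 6501061 to 12147398 counts in retina and 3999412 to 10769648 in cortex.

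A cis-regulatory element is a stretch of DNA that raises or lowers transcription of a nearby gene by binding transcription factors. Such elements usually hold several binding sites close together, and a fragment that carries only some of them can lose all activity. Enhancers are classically described as working in either orientation. In the developing retina, photoreceptor genes are driven largely by homeodomain factors such as CRX and OTX2 together with the leucine zipper factor NRL. The R class is read, from knowledge of the study, as open chromatin sites of retina, while the tables give only the letter. In a reporter of this kind the barcode is transcribed, so its RNA counts relative to its DNA counts report how strongly the attached fragment drove transcription.

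The measure used for a construct is its share of all RNA counts of a replicate divided by its share of all DNA counts, here called the share ratio. A share ratio of 1 means equal shares of RNA and DNA. Together, the 107 constructs took 15.6% ± 0.55 of the retina RNA counts and 0.308% ± 0.005 of the retina DNA counts (SD, n = 3). Averaged over replicates, the median member had a share ratio of 48.3, the lowest 0 and the highest 442.

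The fragments were 348 to 634 bp long with a median of 458 bp, and they began and ended at different places around the window. Of the 107, 50 covered the whole window and 57 covered part of it, while 45 were inserted in the plus and 62 in the minus orientation. The fragments were identified only by their positions in the mouse build mm9, and gene annotation and genome sequence of that build were not used here. What the files give as sequence is the barcode of each construct. The barcodes below belong to the constructs that mark where activity was present or missing at the edges of 5 sites. They are printed in lower case throughout, with no base set in capitals, because the whole barcode is the identifier.
R64, 53864265 to 53864730, RNA in 3 replicates: tggagcgttgtcggg
R64, 53864277 to 53864642, no RNA: caagtcaagttttag
R332, 92998111 to 92998506, RNA in 3 replicates: ctaccgaactctttt
R332, 92998166 to 92998738, RNA in 2 replicates: aaagacggagtgcgt
R332, 92998171 to 92998518, no RNA: gtgcggggaacgtcg
R332, 92997788 to 92998203, no RNA: ccgactttaaacgca
R349, 108818881 to 108819273, RNA in 3 replicates: ctaggctacctacag
R349, 108818944 to 108819380, no RNA: tcaagctgacccata
R539, 77656886 to 77657305, RNA in 3 replicates: accagttaacacctg
R539, 77656779 to 77657154, no RNA: cctactgtcgcgggc
R24, 60691562 to 60691972, RNA in 3 replicates: tcgagtcctgtagat
R24, 60691500 to 60691911, RNA in 1 replicate: acagcgaaatactca

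Activity was present for nearly every fragment that held most of its window and was missing from most that held little of it. All 50 whole-window constructs had RNA in all 3 retina replicates, with share ratios from 17.5 to 442 and a median of 65.9. Of the 57 partial constructs, 44 had RNA in all 3 replicates and 9 had none in any. RNA in all 3 replicates was found for 94 of the 107 members, against 5.99% of all constructs that met the DNA minimum, and no RNA at all for 9, against 64.3% of all. These shares repeat how the sites were chosen, and nothing is read from them.

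With the members of all 9 sites pooled, the loss went with the number of window bases a fragment carried. Of the 9 members without RNA in any replicate, 5 were nested fragments of R64. The pooled counts given next thus rest largely on that site and are not counts of independent fragments. With at least 200 bases but not the whole window, 39 of 40 members had RNA in all 3 replicates and the median share ratio was 57.6. With at least 100 but under 200 bases it was 5 of 15, with 8 of the 15 at no RNA, and with under 100 bases it was 0 of 2. A limit of 180 bases, set after the values were seen, separated them most clearly. Above it, 93 of 94 members had RNA in all 3 replicates, and at or below it 1 of 13 did, a fragment of R64 with 161 window bases. In the other R sites, RNA in all 3 replicates was found for 27.4% of 3713 whole-window constructs and for 23.0% of 3376 partial ones with at least 200 bases. It was found there for 5.58% of 1523 with at least 100 but under 200 bases and for 0.926% of 216 with fewer, so the same fall with overlap appeared from a lower start. Whether the fall differs between the 9 sites and the other R sites was not tested.

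Over all members, those without RNA included, whole-window fragments were not higher than partial ones in every site. In the 8 sites with at least 2 whole-window and 2 partial members, the median difference in mean log2 share ratio, whole minus part, was 0.27. In single replicates it was 0.55, -0.14 and 0.95. For the other R sites the same median was 0.43 over 434 sites. R64 had the largest difference among the 8, 2.16, with a median share ratio of 47.4 for its 5 whole-window constructs and 12.0 for its 18 partial ones. The difference was below 0 in 3 of the 8, at -0.67 in R321, -0.54 in R366 and -0.03 in R349. R321 had median share ratios of 50.5 for 9 whole-window and 123 for 2 partial constructs.

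Restricted, after the values were seen, to members with RNA in all 3 replicates, the median difference over the same 8 sites was -0.09, and it was below 0 in 5 of them. R332 was then the lowest at -1.37, with median share ratios of 44.8 for 5 whole-window and 129 for 5 partial constructs. R64 was at 1.29, with 47.4 for 5 whole-window and 25.4 for 11 partial constructs, and R24 was at 1.49, with 104 for 3 whole-window and 38.1 for 4 partial constructs.

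R64, on chromosome 19 with its window from 53864126 to 53864425 (chr19:53864126-53864425, mm9), had the densest tiling, with 23 members of which 18 covered part of the window. All 18 partial fragments lacked its left end and ran past its right end, so they form a series that begins ever further to the right. The lowest number of window bases with RNA in all 3 replicates was found here. The plus fragment from 53864265 to 53864730 held the last 161 window bases and had share ratios of 4.21, 16.8 and 7.93. The next fragment, minus, from 53864277 to 53864642, started 12 bases further right and had no RNA in any replicate from 410 DNA counts. These neighbours differ in orientation and in their right end as well as in those 12 bases.

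The 4 R64 fragments that started further right, between 53864291 and 53864314, also had no RNA in any replicate, from 115 to 678 summed DNA counts. The last, from 53864332 to 53864939, had 59 RNA counts in replicate 2 only, with share ratios of 0, 0.20 and 0 from 1212 DNA counts. A count of 0 still allows a share ratio of up to 0.00534 to 0.0315 for the 5 R64 constructs without RNA, if 3 counts over the 3 RNA libraries are taken as the floor. Each of those limits lies far below the 4.21 of the nearest fragment with RNA in all 3 replicates.

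To the left of that edge, R64 fragments of the minus orientation tended to be lower the more window bases they lacked. The highest member by mean log2, a minus fragment from 53864123 to 53864585 that covers the whole window, had share ratios of 822, 41.6 and 195. The minus fragment from 53864153 to 53864603 lacked 27 window bases, had 92.2, 78.5 and 218, and alone gave 52.9% of the RNA and 19.3% of the DNA counts of the R64 members. The minus fragment from 53864210 to 53864619 had 32.4, 95.4 and 55.9. Fragments starting from 53864225 to 53864265 were lower still. The plus fragment from 53864225 to 53864783 had 16.7, 21.7 and 15.0, and the minus fragment from 53864239 to 53864813 had 22.4, 9.97 and 5.74. Whole-window plus fragments broke this order, and those from 53863992 to 53864474 and from 53864064 to 53864585 averaged only 19.5 and 25.8. The median member, minus, from 53864244 to 53864691, had 11.1, 6.34 and 20.8. Over the 23 members the number of window bases and the mean log2 share ratio had a Spearman correlation of 0.80, a description of nested fragments that share most of their sequence. R64 had the highest of the 9 sites, and the others ran from -0.12 in R366 and 0.07 in R321 to 0.54 in R368 (6 to 16 members).

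One R64 fragment went against this order. The minus fragment from 53864219 to 53864745 had share ratios of 8.99, 0 and 2.01 from 189 DNA counts, although fragments starting both left and right of it had RNA in all 3 replicates. At nearly the same position, R64 fragments of opposite orientation also differed. The minus fragments from 53864190 to 53864600 and from 53864210 to 53864619 averaged 62.2 and 61.2, while the plus fragment from 53864206 to 53864611 had 10.9, 4.89 and 18.1. That plus fragment did not overlap either minus fragment in its replicate values.

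R332, on chromosome 13 with its window from 92998046 to 92998345 (chr13:92998046-92998345, mm9), had 13 members and lost activity at both ends. On the left, the plus fragment ending at 92998203 held the first 158 window bases and had no RNA from 216 DNA counts. On the right, the minus fragment from 92998111 to 92998506 held the last 235 bases and had share ratios of 46.4, 37.5 and 61.2. The minus fragment from 92998166 to 92998738, which starts 55 bases further right, had 0, 0.26 and 0.11. This near loss rests on the deep coverage of 3545 DNA counts and 362 RNA counts. The one in minus orientation from 92998171 to 92998518 had no RNA from 340 DNA counts.

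The other 10 R332 fragments were high in every replicate. The highest, minus, from 92998075 to 92998457, had share ratios of 165, 712 and 53.7, from DNA counts of 187, 15 and 371. The median member, minus, from 92997975 to 92998454, had 47.0, 29.5 and 57.9. A fragment of the same orientation displaced by 8 bases at its start and 7 at its end had 102, 99.7 and 123. The replicate values of these neighbours do not overlap, although the fragments share 98.3% of the longer one. The 3 plus fragments with RNA averaged 29.7 to 37.8 and the 7 minus ones 44.8 to 310.

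R349, on chromosome 5 with its window from 108818806 to 108819105 (chr5:108818806-108819105, mm9), had 11 members, of which 10 had RNA in all 3 replicates. These 10 had similar levels, with mean share ratios from 25.3 to 96.8. The highest, plus, from 108818773 to 108819175, had 53.8, 169 and 67.5, and the median one, minus, from 108818600 to 108819081, had 28.0, 30.9 and 89.8. The plus fragment from 108818881 to 108819273 held the last 225 window bases and had 71.5, 53.9 and 19.4. A minus fragment from 108818944 to 108819380 started 63 bases further right, held 162 bases and had no RNA from 315 DNA counts. As in R64 and R332, removal from the left end left a right-hand piece without RNA.

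R539, on chromosome 1 with its window from 77657066 to 77657365 (chr1:77657066-77657365, mm9), had 8 members, and its inactive piece was the left end. In minus orientation, the fragment from 77656779 to 77657154 held only the first 89 window bases and had no RNA from 341 DNA counts. The one in minus orientation from 77656886 to 77657305 held the first 240 bases and had share ratios of 15.8, 55.4 and 34.0. The plus fragment from 77657149 to 77657609 held the last 217 bases and shared only 6 bases with the inactive piece. Its share ratios were 54.6, 55.0 and 64.8, the smallest relative spread of the R539 members. The highest R539 member, minus, from 77656775 to 77657318, had 82.8, 260 and 79.5. Another minus fragment, from 77657080 to 77657578, had 210, 114 and 38.2.

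The 3 whole-window fragments of R539 lay in between. The one in plus orientation from 77656801 to 77657375 had 103, 44.6 and 129. A minus fragment from 77656992 to 77657420 had 27.3, 41.8 and 45.5, and the one from 77657007 to 77657415 had 47.0, 109 and 63.2. The last 2 share 95.3% of the longer one and still did not overlap in their replicate values.

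R24, on chromosome 6 with its window from 60691746 to 60692045 (chr6:60691746-60692045, mm9), had 8 members, and a left-end piece had little RNA. A plus fragment from 60691500 to 60691911 held the first 166 window bases and had 14 RNA counts in replicate 1 only. Its share ratios were 0.95, 0 and 0, from only 124 DNA counts. In plus orientation, the fragment from 60691562 to 60691972 ended 61 bases further right, held the first 227 bases and had 60.1, 195 and 68.7. The shorter reach at the right end thus went with RNA in replicate 1 only, and the longer one was among the higher R24 members. The left ends of these fragments differ as well.

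The remaining R24 members all had RNA in every replicate. In minus orientation, the fragment from 60691495 to 60691984 had 25.8, 35.5 and 24.4, and the plus fragment from 60691647 to 60692002 had 30.2, 35.0 and 56.4. The median member, minus, from 60691822 to 60692359, held the last 224 bases and had 31.2, 44.3 and 31.5. These 3 partial fragments were thus alike in level. The whole-window fragments were far apart. The one in plus orientation from 60691661 to 60692066 had 317, 410 and 600, the highest mean of all 107 members, from 96 DNA counts. The one in minus orientation from 60691691 to 60692215 had 113, 97.6 and 101, and the plus fragment from 60691654 to 60692144 had 36.6, 12.2 and 22.4. R24 was the only site of the 9 in which the same construct had the highest share ratio in all 3 replicates.

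In R154, R321, R368 and R366 every member had RNA in all 3 replicates, and none of their members held fewer than 187 window bases. R154, on chromosome 19 with its window from 42645866 to 42646165 (chr19:42645866-42646165, mm9), had 6 members, 5 of them covering the whole window. A minus fragment from 42645643 to 42646169 had share ratios of 116, 71.5 and 108 and gave 65.1% of the RNA and 49.9% of the DNA counts of the R154 members. A plus fragment from 42645796 to 42646185 had 60.3, 71.5 and 71.1. Their replicate values overlap at 71.5.

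The plus fragment of R154 from 42645801 to 42646187, displaced by a few bases from the one just given, had 9.90, 65.4 and 33.2 from 197 DNA counts. In minus orientation, the fragment from 42645829 to 42646254 had 56.4, 32.7 and 172 from 107 DNA counts. In plus orientation, the fragment from 42645835 to 42646324 had 267, 14.8 and 112 from 207 DNA counts. The replicate ranges of these 3 overlap, so their order is not resolved. The single partial fragment, minus, from 42645962 to 42646572, held 204 bases and had 39.2, 19.5 and 76.1, within the range of the others.

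R321, on chromosome 6 with its window from 3925746 to 3926045 (chr6:3925746-3926045, mm9), had 11 members, 9 of them covering the whole window. A partial fragment was its highest by mean log2. The one in minus orientation from 3925760 to 3926243, which lacks the first 14 window bases, had 191, 289 and 181 and gave 32.2% of the RNA but 8.98% of the DNA counts of the R321 members. The median member, minus, from 3925613 to 3926112, had 66.5, 61.7 and 23.3. The lowest, plus, from 3925592 to 3925990, lacked the right end and had 15.3, 34.2 and 24.6. The replicate values of the highest member do not overlap those of the median or the lowest one.

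R368, on chromosome 14 with its window from 52727746 to 52728045 (chr14:52727746-52728045, mm9), had 11 members, of which 8 covered part of the window from either side. The highest, plus, from 52727477 to 52727963, held the first 218 bases and had 151, 232 and 116. A minus fragment from 52727471 to 52727940 shares 95.3% of the longer one and had 20.7, 20.2 and 30, without overlap. The median member, plus, from 52727647 to 52728035, had 74.0, 48.1 and 51.5. At the right side, the minus fragment from 52727826 to 52728237 had 70.7, 93.9 and 71.9. The one in plus orientation from 52727833 to 52728359 was the lowest member of the site, at 5.19, 5.93 and 5.45, although it starts within a few bases of the one before. The 2 differ in orientation and in their right end.

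R366, on chromosome 9 with its window from 106216566 to 106216865 (chr9:106216566-106216865, mm9), had 16 members, 12 of them minus. The lowest, minus, from 106216278 to 106216775, held the first 210 bases and had 10.4, 11.8 and 14.4. The fragment with the last 207 bases, minus, from 106216659 to 106217111, had 89.8, 48.0 and 60.9. The left piece was thus lower than the right piece in every replicate. The highest, minus, from 106216605 to 106217111, had 858, 242 and 137 from only 92 DNA counts, and the median one, minus, from 106216399 to 106216913, had 46.0, 61.1 and 180. The 4 plus fragments averaged 17.5 to 82.1 and the 12 minus ones 12.2 to 412.

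The stretch shared by all fragments with RNA in 3 of 3 replicates was taken for each site. It was 100 bp in R368 (52727833 to 52727932), 117 bp in R366 (106216659 to 106216775), 151 bp in R24 (60691822 to 60691972) and 157 bp in R539 (77657149 to 77657305). It was 193 bp in R349 (108818881 to 108819073), 208 bp in R154 (42645962 to 42646169), 210 bp in R64 (53864265 to 53864474), 231 bp in R321 (3925760 to 3925990) and 240 bp in R332 (92998111 to 92998350). Every fragment with RNA in 3 replicates holds this stretch by definition, and more fragments can only shorten it. In R154, R321, R368 and R366 all members had RNA in 3 replicates. The stretch of those sites is therefore only what all cloned members share, set by the tiling, and does not locate activity. Of the 13 members without RNA in all 3 replicates, all in the remaining sites, 12 lacked 12 to 151 bases of the stretch of their site. The exception was the R64 fragment from 53864219 to 53864745, which held all 210 bases. The missing bases lay only at the left of the stretch in R64 and R349, and only at the right in R539 and R24. The opposite end of those stretches is thus also set by the tiling alone. Only R332 had such fragments on both sides.

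The constructs below the DNA minimum were not used to choose the sites and are set here beside these stretches. Of the 24, 17 had RNA in all 3 replicates, and 14 of these 17 held the whole stretch of their site. These counts include R154, R321, R368 and R366, and many of the constructs cover the whole window. Holding the stretch was thus largely fixed by the cloning, and nothing is read from the 14. The other 3 lacked 12 bases in R64, 14 in R321 and 28 in R332, all at the right end, so the stretch of these sites is shorter than the members alone give. The 3 constructs without RNA all lacked part of it, but they had only 7, 65 and 137 DNA counts. The other 4 had RNA in 1 or 2 replicates and held the whole stretch. Among these was an R64 plus fragment from 53864262 to 53864664, which starts 3 bases before the last R64 member with RNA in all 3 replicates. Its RNA counts were 90, 10 and 0 from DNA counts of 17, 85 and 2.

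Orientation had no steady sign across the 9 sites. Over all members, the median over sites of the difference in median log2 share ratio, plus minus minus, was 0.07, and it was -0.53, -0.63 and -0.60 when each replicate was taken alone, so its sign depends on how replicates are combined. Over members with RNA in all 3 replicates alone it was -0.31, with 5 of the 9 sites below 0. R64 then stood at -1.58, with median share ratios of 25.4 for 9 plus and 62.2 for 7 minus constructs, against 0.20 over all its members. The other R sites had -0.05 over 438 sites. R366 and R332 were lower in plus orientation, with median share ratios of 29.6 in plus and 115 in minus for R366 and of 32.6 in plus and 82.1 in minus for R332. R349 was higher in plus, with 76.4 for 3 plus and 38.2 for 8 minus constructs. Constructs of both orientations were active in every site.

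Pairs of fragments that share at least 90% of the longer one show how far constructs of nearly the same sequence differed. Among members with RNA in all 3 replicates, 22 such pairs in the same orientation differed by a median of 1.81-fold, from 1.02 to 3.40-fold, and 4 of them did not overlap in replicate values. The 19 pairs in opposite orientation differed by a median of 2.45-fold, from 1.32 to 8.72-fold, and 9 did not overlap. The minus fragment was higher in 13 of these 19, including all 4 in R332 and 5 of 7 in R64, and in 0 of 3 in R368. The restriction left out pairs with a member that lacked RNA in some replicate. The R64 plus fragments from 53864265 to 53864730 and from 53864310 to 53864732 share 90.3%, and averaged 9.65 and 0. The R64 minus fragment from 53864219 to 53864745 averaged 3.67, against 17.8 for the plus fragment from 53864225 to 53864783. In the other pairs left out, neither fragment had RNA. The pairs share fragments and barcodes, so they are not independent and carry no test. Such pairs were not counted among the other constructs of the library. Whether these counts are particular to the 9 sites is therefore not known.

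Share ratios with more DNA counts behind them varied less between replicates. Among the 94 members with RNA in 3 replicates, the highest replicate exceeded the lowest by a median of 1.62-fold where the smallest DNA count was at least 150 (33 members). It was 3.08-fold for a smallest count from 50 to 149 (30 members) and 4.89-fold for 10 to 49 (31 members). Over all 107 members the share ratios of 2 replicates had Spearman correlations of 0.62, 0.73 and 0.70, and over the 94 of 0.45, 0.61 and 0.55. Within a site, the SD of mean log2 among members with RNA in 3 replicates was 0.65 to 1.46, and the median SD over replicates of a construct was 0.79. In 6 of the 94, replicates differed by more than 10-fold. With the mean log2 level, the summed DNA counts had a Spearman correlation of -0.01 over 107 members. Fragment length had one of 0.09 over the 50 whole-window members, centred on each site.

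Cortex was the readout that the choice of sites did not use. Of the 107 members, 101 had at least 10 counts in each cortex DNA library, and together their share ratio was 0.61, 0.79 and 0.87 in the 3 replicates. None of the 101 was called higher or lower in RNA than in DNA (edgeR quasi-likelihood test, smallest adjusted p = 0.095, 17 with an unadjusted p under 0.05). Those 17 all had a log2 below 0, from -10.3 to -5.75, and the same count over all constructs is not given here. Over all 38826 constructs tested in cortex, 0.665% were called higher and 0.00773% lower. DESeq2 called 2 members higher and 42 lower, where it called 2.79% of all constructs higher and 46.6% lower. Without the replicate block, edgeR called 0 members higher and 16 lower, and of all constructs 1.25% higher and 16.5% lower. The median fitted log2 RNA/DNA was -2.75 for the members and -3.36 for all constructs, both below 0. The counts were sparse, with RNA in all 3 cortex replicates for 39 of the 101 and in none for 12, and replicate share ratios correlated by 0.15, 0.36 and 0.21 (Spearman, 101 members).

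The 2 constructs that DESeq2 called higher in cortex were chosen for mention after their values were seen. The R332 minus fragment from 92998057 to 92998469 had cortex share ratios of 5.31, 1.75 and 5.58, with a log2 of 2.55 (SE 0.80, adjusted p = 0.0046 in DESeq2) and of 2.34 (SE 1.43, adjusted p = 0.40) in edgeR. The R349 minus fragment from 108818665 to 108819172 had 2.13, 2.65 and 1.69, with a log2 of 1.73 (SE 0.67, adjusted p = 0.022 in DESeq2) and of 1.51 (SE 1.12, adjusted p = 0.50) in edgeR. Both lay above 1 in all 3 cortex replicates. In retina the same fragments had means of 129 and 25.3.

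Summed by site, none of the 9 was called in cortex, where 2.99% of 2108 sites were called higher and 0% lower (edgeR quasi-likelihood test, adjusted p from 0.43 to 0.99, 1 of 9 with an unadjusted p under 0.05). R321 was the lowest, with a log2 of -1.05 and a 95% interval of the fit from -1.96 to -0.15, and its members had share ratios of 61.6 ± 11.2 in retina and 0.374 ± 0.057 in cortex (SD, n = 3 each). R349 was the highest, with 0.27 and an interval from -0.33 to 0.87, and its members had 44.9 ± 2.65 in retina and 0.933 ± 0.042 in cortex (SD, n = 3 each). R154 had 75.4 ± 19.6 in retina and 0.566 ± 0.183 in cortex. The intervals of the other 7 sites ran from -2.58 at the lowest (R539) to 0.93 at the highest (R332). The missing calls do not show that RNA and DNA were equal there.

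Most of the 9 members without any retina RNA had RNA in cortex. They had 3430 summed DNA counts in retina, and in cortex 8 of the 9 had RNA, with 3404 RNA counts from 2976 DNA counts. Their joint cortex share ratio was 0.631, 0.789 and 1.98, while that of the other 92 members tested in cortex was 0.607, 0.787 and 0.818. In replicates 1 and 2 the sets were close. The replicate 2 value, however, rests mainly on the R64 plus fragment from 53864314 to 53864862, with 446 RNA counts there. No other of the 9 had more than 30 in replicate 2. The higher value in replicate 3 rests on 3 R64 constructs, which gave 2420 of the 2523 RNA counts of the 9 there. The other 6 had at most 70 RNA counts each in replicate 3 and a joint share ratio of 0.134. The exception was the inactive R539 piece, with no RNA from 254 DNA counts in cortex. The barcodes of the other 8 were thus counted as RNA in cortex.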

How the data were processed

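Barcode counts are the raw ones that the authors deposited for each construct, 3 RNA and 3 DNA libraries per tissue, and, in other tables, log2 of the RNA to DNA ratio plus 0.001, per the file headers. Recomputed log2 values differed from the deposited ones by at most 5e-10. The fragment table (read counts, positions, overlap and length) was deposited in 2 identical copies and used once. Bowtie2 2.1.0, SAMtools 0.1.19, bedtools 2.22.1, FastQC and mm9 are named, without roles, per the submitters' processing notes. Starts count from 0 in the files and from 1 here.

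Shares are over constructs with at least 10 counts in each DNA library of a tissue. Mean log2 share ratios used a prior count of 2. Barcode reads were used without molecular identifiers, so the floor of 3 counts covers counting error only. Replicates were separate sets of retinas or animals, per the labels. Cortex was tested over all constructs, and over sites with at least 5 constructs, with edgeR 4.0.16 in R 4.3.3 (robust quasi-likelihood, trimmed mean of M values, Benjamini-Hochberg, threshold 0.05). The replicate was a block because RNA and DNA came from the same tissue; their deviations correlated by only -0.04 to 0.02. Alternatives were DESeq2 1.42.0, other scalings, minimums and priors, and left-out replicates. The fits were also run on simulated counts with a fixed spread that was not estimated from cortex, so that run does not bear on the missing calls. Python 3.11.15 was used otherwise.

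The members and the comparisons were chosen with earlier results of these data known. Constructs named are the highest, median and lowest of each site by mean log2, and all in sites with at most 8 members. Others, chiefly those at the edges of activity and those that DESeq2 called higher in cortex, were chosen after their values were seen. Motifs were not searched, since no genome sequence was used here.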

Additional observations from a re-analysis of the deposited data

Results flagged for a closer look

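In 5 of the 9 sites the summed share ratio of the members lay above 1 in 3 of 3 retina replicates and below 1 in 3 of 3 cortex replicates. The cortex means were 0.566 for R154, 0.374 for R321, 0.690 for R24, 0.933 for R349 and 0.872 for R64, against retina means of 75.4, 61.6, 46.7, 44.9 and 41.9. The sites were chosen by their retina values, and the difference between the tissues was not tested. The same count over all sites was not made. Scaled by total library size, the median cortex log2 RNA/DNA of all 2108 sites was -0.46. A cortex value below 1 was thus common among all sites and is not particular to these. Among the constructs of the 9 sites that missed the DNA minimum and enter none of the share ratios, 17 of 24 had RNA in all 3 retina replicates. Their DNA counts are too low for a share ratio.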

How the results depend on the processing

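The median log2 share ratio of the members was 5.40 and moved to 5.36 with a prior count of 5, to 5.29 with at least 30 DNA counts, and to 5.28 to 5.57 with a replicate left out. The difference between orientations, plus minus minus, was 0.07, and it was 0.00655 with a prior count of 0.5, -0.0150 with the authors' deposited log2 values, -0.0778 with at least 30 DNA counts, and -0.23 to -0.13 with a replicate left out. The median SD within a site was 3.37, against 4.67 with the deposited log2 values, which put constructs without RNA lower, and 1.46 with at least 30 DNA counts, where 83 members remained. The whole minus part difference moved by less than its spread over replicates. Without the construct with most RNA in each site, 8 of the 9 sites stayed among the first 10, with R64 at rank 16, and without replicate 3 R64 was at rank 12. Cortex calls among members numbered 0, against 44 in DESeq2 and 16 with no replicate block. No site was called in cortex under any alternative in which it was fitted (R154 was not fitted with at least 30 DNA counts), and the block changed no site's call. Values of 6 sites changed sign under some alternative. With total library size the log2 was -0.12 for R332, -0.10 for R349 and -0.22 for R64, a scaling that moved the median of all sites to -0.46, against -0.09. R368 had 0.0592 with at least 30 DNA counts. With a replicate left out, R368 ranged from -0.227 to 0.111, R539, at -0.97 with all replicates, from -1.87 to 0.0248 (without replicate 1), R24 from -0.324 to 0.0895, and R332 from -0.0582 to 0.691. The cause of these changes was not tested.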
